A study of Mus musculus with 6 samples.

Results

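The IgG receptor genes of mouse macrophages were examined in bone marrow-derived macrophages (BMDMs) of WT and PYK2 KO mice. They comprised Fcgr1, Fcgr3 and Fcgr4, which encode the activating Fc gamma receptors, Fcgr2b, which encodes the inhibitory receptor, Fcer1g, which encodes the common gamma chain, and Fcgrt, which encodes the neonatal Fc receptor FcRn. The 6 genes were taken by symbol from the 55291 genes of the deposited count table. All 6 were present, and all 6 passed the filter on low counts that left 9815 genes for testing. Each of the 6 libraries was made from a single C57BL/6 mouse, of which 3 were WT and 3 PYK2 KO. PYK2 KO mice lack the kinase in the whole body, so the marrow cells lacked it before culture. Marrow cells of both genotypes were grown for 7 days without further stimulation in medium with 20% L929-conditioned medium, a source of M-CSF. The age and sex of these mice are not given in the sources used here.

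Macrophages bind IgG-coated particles and immune complexes through the Fc gamma receptors. When activating receptors are clustered, Src family kinases phosphorylate the paired tyrosines (the ITAM) of the gamma chain, and the kinase Syk is recruited, which starts phagocytosis and cytokine release. The inhibitory receptor carries a single tyrosine motif (the ITIM) that recruits the phosphatase SHIP1 and restrains this response, so macrophages read the balance of both kinds. FcRn works inside the cell: with β2-microglobulin as its light chain, it binds IgG and albumin in acidic endosomes and returns them to the surface, which spares them from lysosomes, and in macrophages it also routes immune complexes.

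The coding stretches that set activating and inhibitory signaling apart are shown first, since the comparison is between these kinds of receptor. They were read from the GENCODE M21 transcripts (GRCm38, the build called mm10 in the labels) and have the codons of the signaling tyrosines in capitals. Both lie on the minus strand of chromosome 1, from 171229874 to 171230087 for Fcer1g and from 170961056 to 170961198 for Fcgr2b, and an intron interrupts each.
Fcer1g ITAM: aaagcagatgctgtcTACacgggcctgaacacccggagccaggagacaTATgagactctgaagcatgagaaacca
Fcgr2b ITIM: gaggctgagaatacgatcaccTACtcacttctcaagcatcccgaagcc
The spacing of the ITAM was found in 1 of the 6 genes' principal coding sequences, that of Fcer1g, whose 86 codons make it the shortest of them. Fcgr1, Fcgr3 and Fcgr4, with 404, 267 and 249 codons, had no match.

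The positions of the genes bear on how reads could be assigned. In GENCODE M21, Fcgr2b (chromosome 1, 170958617 to 170976547, minus strand), Fcgr4 (171018920 to 171029761, plus strand) and Fcgr3 (171051174 to 171064935, minus strand) stand side by side, and Fcer1g follows at 171229572 to 171234365 on the minus strand. Fcgr1 lies on chromosome 3 from 96282909 to 96293969 and Fcgrt on chromosome 7 from 45092990 to 45103851, both on the minus strand. The longest identical run between any protein-coding transcripts of Fcgr2b and Fcgr3 was 129 bases, the longest between any pair of the 6 genes. Within the last 300 bases of the transcripts, next to the poly(A) tail where this assay reads, the longest run that Fcgr2b and Fcgr3 share was 9 bases. The antisense genes annotated over Fcgr2b and Fcgrt had 0 counts in all libraries.

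The libraries were made by a bulk form of MARS-seq, which counts the 3′ ends of polyadenylated transcripts, and held 2857097 to 3917207 counts. Values are given as counts and as CPM, counts scaled to library size with TMM factors in edgeR. Ptk2b, which encodes PYK2, had 568 to 737 counts in the WT and 64 to 71 in the PYK2 KO libraries, so its transcript stood at 11.2% of the WT level and was not absent. The labels name no batch. The main direction of variation not explained by genotype, with 31.1% of the residual variance, set WT library 1 and PYK2 KO library 4 apart from WT library 6 and PYK2 KO library 2. The cells carried macrophage markers, with all 9 of the list detected in every library at a summed level of 29647 to 29852 RPM (counts scaled to the library total alone) in WT and 30796 to 31361 RPM in PYK2 KO, without overlap. Most of this sum was Lyz2, whose CPM averaged 24068 in WT against 25389 in PYK2 KO, while 6 of the 9 genes had a log2 fold change below 0, with a median of -0.05 over the list. Of the 9 genes 0 passed in edgeR's quasi-likelihood test and 0 had an unadjusted p under 0.05. Markers of dendritic cells, NK cells, and mast cells and basophils summed to at most 2.21 RPM in any library. Of the B cell list, 8 of 10 genes had 3 counts or fewer in each library, and the sum, nearly all Ighm, was 368 to 401 RPM in WT and 336 to 373 RPM in PYK2 KO. Of the 8 endothelial markers 5 were at that floor, and the sum ran from 8.50 to 11.998 RPM in WT and from 8.75 to 11.97 RPM in PYK2 KO. Neutrophil markers, from cells that also bear Fc gamma receptors, summed to 127 to 183 RPM in WT and 133 to 235 RPM in PYK2 KO, with Ly6g at the floor. Of the 6 tested, 0 passed in edgeR's quasi-likelihood test. An unadjusted p under 0.05 was found in 2, against 6.03% of all genes tested. These were S100a9 and Mpo, with log2 fold changes of 0.85 and 1.19. S100a9 overlapped between genotypes, and Mpo had only 4 to 21 counts per library. Over the 6 tested, the log2 fold change was above 0 in 4 and below 0 in 2, with a median of 0.14. S100a9 passed, higher in PYK2 KO, with no filter on low counts, with the residual component as a covariate and without WT library 1. The part of these markers in the results on the Fc receptor genes was not tested. In bulk RNA, fewer cells of a type and less RNA per cell cannot be told apart.

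No member passed the threshold of an adjusted p under 0.05 in edgeR's quasi-likelihood test, which called 25 of all 9815 genes (0.255%), 14 of them lower in PYK2 KO (0.143%). At an unadjusted p under 0.05 stood 2 of the 6, Fcgrt and Fcgr2b, against 6.03% of all genes tested. By other tools, the likelihood ratio test and edgeR's exact test each called 1 member, Fcgrt, and DESeq2 and limma voom called 0. The log2 fold change (PYK2 KO over WT) was above 0 in 4 members and below 0 in 2, with a median of 0.07 against 0.0019 over all genes tested. The genotypes did not overlap in 1 of the 6, Fcgrt, with PYK2 KO below WT. Over all genes tested they were apart in 10.2%, with PYK2 KO below WT in 5.07%, so 1 gene of 6 is no result about the members as a group. The 4 receptors for IgG on the cell surface and their gamma chain overlapped between genotypes, as the plot of CPM by library shows.

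**Figure D1:**
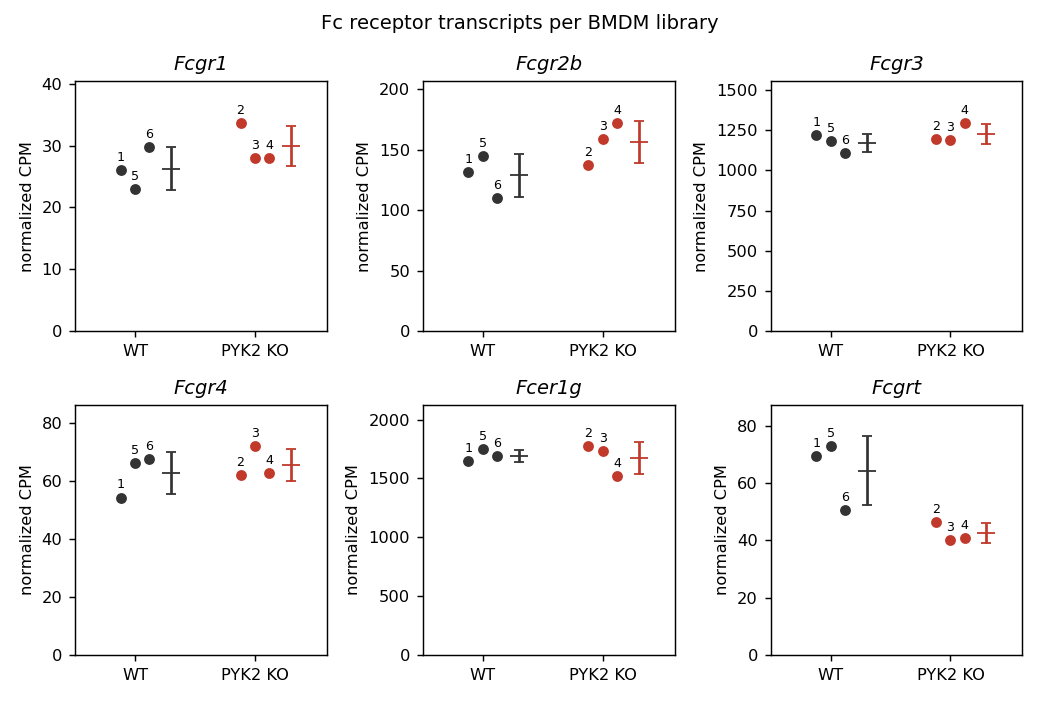
Normalized CPM of the 6 Fc receptor genes in each library, WT in black and PYK2 KO in red, with the mouse number above each point and the mean and SD (n = 3 mice) beside it; each vertical axis starts at 0. In Fcgrt all 3 PYK2 KO libraries, at 40.2 to 46.5 CPM, lie below the WT libraries at 50.5 to 72.8 CPM, while the other genes overlap.

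Fcgrt had 272, 260 and 144 counts in WT libraries 1, 5 and 6, or 69.5, 72.8 and 50.5 CPM. In PYK2 KO libraries 2, 3 and 4 it had 145, 116 and 137 counts, or 46.5, 40.2 and 40.8 CPM. The genotypes did not overlap, with 3.95 CPM between the lowest WT and the highest PYK2 KO library, and WT library 6 stood nearest to the PYK2 KO group. WT BMDMs averaged 64.2 ± 12.04 CPM and PYK2 KO BMDMs 42.5 ± 3.49 CPM (SD, n = 3 mice each), so PYK2 KO stood at 66.2% of WT. The log2 fold change was -0.61 with a standard error of 0.14 and a 95% interval from -0.89 to -0.32, which is not corrected for the number of genes. Its unadjusted p of 0.000417 was the 31st smallest of all genes, and the adjusted p of 0.132 in edgeR's quasi-likelihood test missed the threshold. A two-sided exact permutation test over the 6 mice gave p = 0.1, the smallest that 3 against 3 allow. Counting error alone would give a coefficient of variation of 6.87% in WT and 8.71% in PYK2 KO, and the measured ones were 18.7% and 8.20%.

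Whether Fcgrt passed depended on the test, on the filter and on WT library 6. The adjusted p was 0.0140 in edgeR's likelihood ratio test, 0.0169 in its exact test, 0.13 in DESeq2 and 0.179 in limma voom, while the log2 fold change stayed between -0.61 and -0.60 in each. Without WT library 6 the log2 fold change was -0.74 and Fcgrt passed, at an adjusted p of 0.0129 in the quasi-likelihood test. Leaving out any other library gave an adjusted p between 0.11 and 0.782 in that test.

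**Figure D2:**
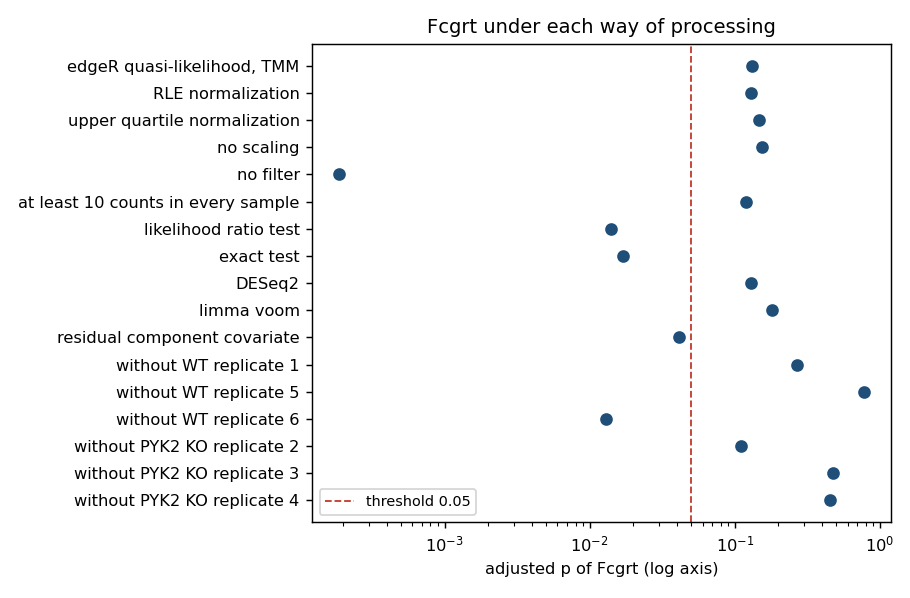
Adjusted p of Fcgrt on a log axis for the edgeR quasi-likelihood test with TMM scaling and for each alternative, with the threshold of 0.05 as a dashed line. The points left of the line are the fits with no filter (0.000186), the likelihood ratio test (0.0140), the exact test (0.0169), the residual component as a covariate (0.0416) and without WT library 6 (0.0129).

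The promoter of Fcgrt is shown because its transcript had the largest difference among the members, and that of Fcgr1 because PU.1 is known to drive this receptor in macrophages. Both are from RefSeq (GRCm38.p6) and run 5′ to 3′ on the minus strand from 250 bases before to 50 after the start, at chr7:45103773-45104072 and chr3:96293920-96294219. All 6 genes had such a sequence. Capitals mark matches on either strand to GAGGAA (the core bound by PU.1), GGGCGG (the GC box), the interferon response element (GAAA on both sides of 2 free bases) or TATAAA (the TATA box).
Fcgrt promoter: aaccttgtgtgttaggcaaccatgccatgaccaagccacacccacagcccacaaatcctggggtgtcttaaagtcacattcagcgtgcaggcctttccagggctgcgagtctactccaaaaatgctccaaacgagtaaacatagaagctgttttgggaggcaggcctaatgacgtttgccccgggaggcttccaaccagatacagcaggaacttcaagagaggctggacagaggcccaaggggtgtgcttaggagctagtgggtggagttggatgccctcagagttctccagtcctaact
Fcgr1 promoter: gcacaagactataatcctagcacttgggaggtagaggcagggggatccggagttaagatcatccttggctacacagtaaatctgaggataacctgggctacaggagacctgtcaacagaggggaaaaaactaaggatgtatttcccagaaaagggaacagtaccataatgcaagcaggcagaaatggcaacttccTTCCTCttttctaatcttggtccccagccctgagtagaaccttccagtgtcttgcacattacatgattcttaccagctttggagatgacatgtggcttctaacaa
A match is a description of the letters and not a bound site. The Fcgrt window held none of the 4 sets of letters. In Fcgr1 the PU.1 core began 55 bases before the start. Among 32851 promoters of the same length, 28.3% held the PU.1 core, 35.7% the GC box, 3.44% the interferon response element and 13.6% the TATA box. The PU.1 core was also found in the promoters of Fcgr3 and Fcgr4, and the interferon response element in that of Fcgr4. The Fcgr3 windows, chr1:171059345-171059644 and chr1:171059354-171059653, overlap and hold the same match. They lie inside the gene as GENCODE M21 places it, with its start at 171064935.

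The inhibitory receptor Fcgr2b was the other gene with an unadjusted p under 0.05. It had 514, 518 and 314 counts in WT libraries 1, 5 and 6, or 131, 145 and 110 CPM. PYK2 KO libraries 2, 3 and 4 had 429, 459 and 578 counts, or 138, 159 and 172 CPM. PYK2 KO libraries 3 and 4 lay above all WT libraries, and PYK2 KO library 2 lay within the WT range, so the groups overlapped. WT BMDMs averaged 129 ± 17.6 CPM and PYK2 KO BMDMs 156 ± 17.5 CPM (SD, n = 3 mice each). This log2 fold change of 0.28 (standard error 0.11, 95% interval 0.05 to 0.50) had an unadjusted p of 0.0205 and an adjusted p of 0.697 in edgeR's quasi-likelihood test. It ran from 0.18 without WT library 6 to 0.37 without WT library 5. The counts cannot tell the splice forms of this gene apart, since they are read at the 3′ end.

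None of the 3 activating receptors passed the test, and in each the genotypes overlapped. Fcgr3, the low-affinity receptor, had 1218, 1183 and 1110 CPM in WT libraries 1, 5 and 6 and 1192, 1190 and 1296 CPM in PYK2 KO libraries 2, 3 and 4. PYK2 KO library 4 was the highest and WT library 6 the lowest, with the other values intermingled. On the log2 scale PYK2 KO minus WT was 0.07, with a standard error of 0.08 and an adjusted p of 0.955 in edgeR's quasi-likelihood test, and the 95% interval of the ratio of PYK2 KO to WT ran from 0.937 to 1.17. The log2 value was 0.03 without PYK2 KO library 4 or without WT library 6. Fcgr1, the high-affinity receptor CD64 and a marker of macrophages, had 26.0, 23.0 and 29.8 CPM in WT libraries 1, 5 and 6 and 33.7, 28.1 and 28.0 CPM in PYK2 KO libraries 2, 3 and 4. Its counts of 81 to 105 per library gave a counting error of about 10.6% in WT and 10.4% in PYK2 KO, close to the spread of 13.0% and 10.9%. PYK2 KO minus WT on the log2 scale, 0.20 with 0.15 as its standard error, had an adjusted p of 0.935 in the same edgeR test and an interval of the ratio from 0.921 to 1.42, the widest of the surface receptors. Omitting PYK2 KO library 2 gave 0.10 and omitting WT library 5 gave 0.11. Fcgr4, which binds some IgG subclasses with intermediate affinity, had 54.4, 66.3 and 67.6 CPM in WT libraries 1, 5 and 6 and 62.2, 72.0 and 62.9 CPM in PYK2 KO libraries 2, 3 and 4. WT library 1 was the lowest and PYK2 KO library 3 the highest. The log2 fold change of 0.07, with 0.11 as its standard error, had an adjusted p of 0.974 in the same edgeR test and an interval of the ratio from 0.889 to 1.24. It was -0.03 without WT library 1.

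Fcer1g, whose gamma chain the activating receptors need for surface expression and signaling, had 1645, 1746 and 1688 CPM in WT libraries 1, 5 and 6 and 1772, 1732 and 1517 CPM in PYK2 KO libraries 2, 3 and 4. Both the highest and the lowest value belonged to PYK2 KO. WT averaged 1693 ± 50.4 and PYK2 KO 1674 ± 137 CPM (SD, n = 3 mice each). This came to -0.02 on the log2 scale, with 0.08 as its standard error and an adjusted p of 0.994 in edgeR's quasi-likelihood test. The interval of the ratio ran from 0.882 to 1.11. The direction turned without PYK2 KO library 4, to 0.05, and without WT library 5, to 0.0052.

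**Figure D3:**
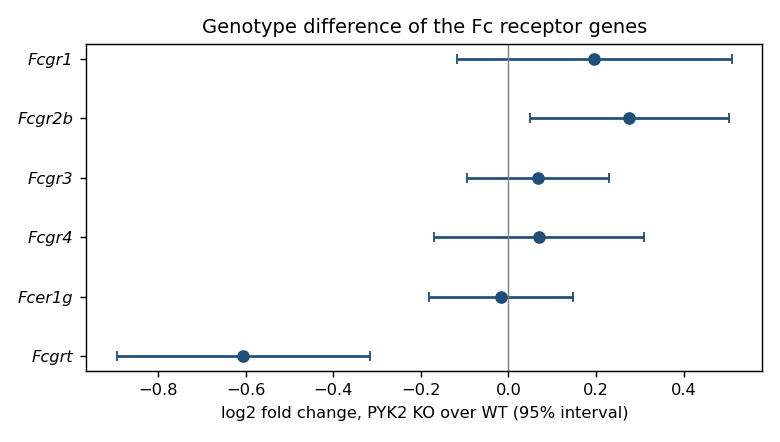
Log2 fold change of PYK2 KO over WT for each Fc receptor gene (points) with its 95% interval from edgeR's quasi-likelihood fit (bars), not corrected for the number of genes; the vertical line marks no difference. The interval of Fcgrt (-0.89 to -0.32) lies left of 0 and that of Fcgr2b (0.05 to 0.50) right of it, and the other 4 include 0.

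The balance of activating and inhibitory transcripts was taken as a ratio within each library, in which the scaling of the library cancels. Its absolute size depends on how well each 3′ end is captured, so it was compared between libraries and not read as a proportion of proteins, and no test was made on it because it combines members. Fcgr3 over Fcgr2b was 9.28, 8.16 and 10.1 in WT libraries 1, 5 and 6 and 8.66, 7.49 and 7.52 in PYK2 KO libraries 2, 3 and 4. PYK2 KO libraries 3 and 4 lay below all WT libraries and PYK2 KO library 2 lay within their range. The 3 activating receptors summed over Fcgr2b gave 9.88 ± 1.10 in WT against 8.51 ± 0.738 in PYK2 KO (SD, n = 3 mice each), a difference of -1.37 with overlapping groups. Without WT library 6 the difference was -0.82. Fcgr1 over Fcgr2b was 0.209 ± 0.0570 in WT and 0.195 ± 0.0440 in PYK2 KO, and Fcgr4 over Fcgr2b was 0.496 ± 0.105 and 0.423 ± 0.0506 (SD, n = 3 mice each). Fcer1g over the summed activating receptors, the supply of gamma chain relative to the receptors that use it, was 1.27, 1.37 and 1.40 in WT libraries 1, 5 and 6 and 1.38, 1.34 and 1.09 in PYK2 KO libraries 2, 3 and 4. PYK2 KO library 4 had the lowest of these values and the other PYK2 KO libraries lay within the WT range.

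**Figure D4:**
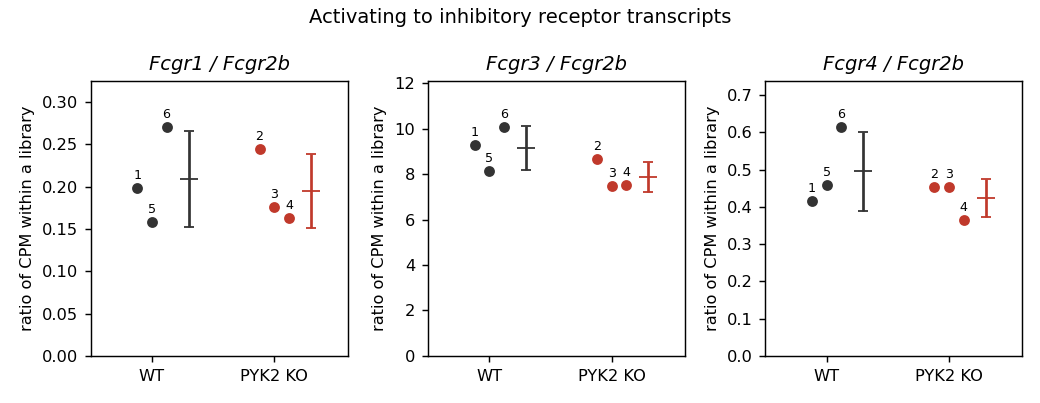
Ratio of the CPM of each activating receptor gene to that of Fcgr2b within each library, WT in black and PYK2 KO in red, with mouse numbers and the mean and SD (n = 3 mice); axes start at 0. The genotypes overlap in all 3 ratios, and for Fcgr3 PYK2 KO libraries 3 and 4 (7.49 and 7.52) lie below the WT libraries.

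B2m encodes the light chain of FcRn. B2m had 971, 263 and 213 CPM in WT libraries 1, 5 and 6 and 523, 1046 and 1521 CPM in PYK2 KO libraries 2, 3 and 4. WT library 1 stood with PYK2 KO libraries 3 and 4, and the genotypes overlapped. The log2 fold change of 1.09 (standard error 0.43) had an adjusted p of 0.702 in edgeR's quasi-likelihood test. It was 2.11 without WT library 1, where B2m passed (adjusted p = 0.00308 in that test), and 0.69 without PYK2 KO library 4, where the adjusted p in that test was 1.00. B2m also passed with the residual component as a covariate and with no filter on low counts. The fit without a filter gave B2m an adjusted p of 4.19e-33 in the quasi-likelihood test although the genotypes overlapped. That fit called 159 genes, against 25 with the filter. B2m over Fcgrt was 14.0, 3.61 and 4.22 in WT libraries 1, 5 and 6 and 11.2, 26.0 and 37.2 in PYK2 KO libraries 2, 3 and 4, with PYK2 KO library 2 below WT library 1.

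In a list of the light chain and the recycling machinery that FcRn uses, 22 of 24 genes were tested. Of these 1 was called, Rab4a, lower in PYK2 KO BMDMs, against 0.255% of all genes tested that were called. Rab4a encodes a GTPase of rapid recycling from early endosomes. It had 14.8, 17.9 and 18.6 CPM in WT libraries 1, 5 and 6 and 6.10, 3.46 and 5.36 CPM in PYK2 KO libraries 2, 3 and 4, without overlap. It fell by 1.75 on the log2 scale with 0.24 as the standard error and an adjusted p of 0.00164 in edgeR's quasi-likelihood test, on counts of 10 to 64 per library, and it passed in each alternative and without any one library. The other 21 genes did not pass in that test, B2m among them, whose calls under other settings are given above. Rab5c, a GTPase of early endosomes, had 473 ± 12.04 CPM in WT and 430.0 ± 20.1 in PYK2 KO without overlap, and Clta, a clathrin light chain, 1400 ± 48.3 and 1328 ± 74.4 CPM (SD, n = 3 mice each). The median log2 fold change of the list was 0.0064.

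No gene near Fcgrt on chromosome 7 passed the test. Of the 53 tested genes whose start lay within 1 Mb, 0 passed in edgeR's quasi-likelihood test, in its likelihood ratio and exact tests, in DESeq2 or in limma voom, and 1 had an unadjusted p under 0.05. Sphk2, a sphingosine kinase, and Nomo1, both with an unadjusted p above that level, had log2 fold changes of -0.16 and -0.19. The median of the 53 was -0.02. Within the same distance of Fcgr1 and Fcer1g, 0 of 36 and 0 of 30 tested genes passed in these tests, with 2 and 4 at an unadjusted p under 0.05, against 6.03% of all genes tested. The 30 near Fcer1g include Fcgr2b, Fcgr3 and Fcgr4, and Fcgr2b is 1 of those 4. With no filter on low counts, 1 of the 30 near Fcer1g passed, against 0 of the 36 near Fcgr1 and 0 of the 53 near Fcgrt.

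Downstream of the activating receptors, 25 of 25 listed kinases, adaptors and actin regulators were tested. None passed in edgeR's quasi-likelihood test or in the likelihood ratio test, the exact test, DESeq2 or limma voom. In the quasi-likelihood test 3 had an unadjusted p under 0.05, against 6.03% of all genes tested. These were Fgr and Cdc42 above WT and Src below it. Fgr, a Src family kinase of myeloid cells, had 36.6 ± 2.72 CPM in WT against 47.0 ± 6.46 in PYK2 KO, and did not overlap. Cdc42, a GTPase that drives actin at the phagocytic cup, had 295 ± 36.3 and 359 ± 57.1 CPM. Src had 12 to 20 counts in WT and 8 to 10 in PYK2 KO libraries, also without overlap (SD and n = 3 mice for the values above). Over all genes tested, 10.2% were without overlap, which is the background for every such gene named here. Syk, the kinase that binds the ITAM, had 214 and 210 CPM on average, a log2 fold change of -0.02. Rac1 and Lat2, the most abundant genes of the list, had log2 fold changes of -0.03 and -0.02. The median of the list was 0.02.

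On the inhibitory side, 9 of 9 listed phosphatases and adaptors were tested, and 0 passed or had an unadjusted p under 0.05 in edgeR's quasi-likelihood test, and 0 passed by the other 4 tools. In 8 of the 9 the log2 fold change was below 0, with a median of -0.06. Inpp5d, which encodes SHIP1, had 213 and 207 CPM on average in WT and PYK2 KO. Ptpn6, which encodes SHP-1, had 481 ± 6.45 and 462 ± 37.2 CPM, and Csk, which restrains Src family kinases, 251 ± 19.5 and 241 ± 16.6 CPM (SD, n = 3 mice each). The genes with the smallest p were Ptpn11, which encodes SHP-2, Dok2 and Dok3, both adaptors, at log2 fold changes of -0.15, 0.16 and -0.08. That of Dok2 was 0.40 without WT library 6 and 0.02 without WT library 1.

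Of the sister adaptors and other receptors that pair with the gamma chain, 6 of 11 genes were tested. In edgeR's quasi-likelihood test 0 passed and 3 had an unadjusted p under 0.05, against 6.03% of all genes tested. The likelihood ratio test, the exact test, DESeq2 and limma voom called 0. Without the filter on low counts 2 passed, Clec4e and Clec4n, and with the residual component as a covariate 1, Clec4n. Clec4n, which encodes the fungal receptor Dectin-2, had 26.0, 15.4 and 18.2 CPM in WT libraries 1, 5 and 6 and 19.9, 24.2 and 103 CPM in PYK2 KO libraries 2, 3 and 4. PYK2 KO library 4 stood alone, and without it the log2 fold change went from 1.31 to 0.13. Clec4e, which encodes Mincle, a receptor for mycobacterial glycolipid, had 50.1, 57.1 and 77.5 CPM in WT libraries 1, 5 and 6 and 79.2, 80.4 and 86.7 CPM in PYK2 KO libraries 2, 3 and 4. The lowest PYK2 KO value exceeded the highest WT value, with WT library 6 near them, and the log2 fold change of 0.43, with 0.13 as its standard error, had an adjusted p of 0.497 in edgeR's quasi-likelihood test. Without WT library 6 it was 0.62, with an adjusted p of 0.0347 in that test. Clec4a1 had 188 ± 18.1 and 158 ± 13.4 CPM, with all PYK2 KO libraries below the WT libraries, and Clec4d 604 ± 70.5 and 695 ± 112 CPM (SD, n = 3 mice each). Tyrobp, which encodes DAP12, the sister ITAM adaptor of macrophages, had 2533 ± 241 CPM in WT against 2685 ± 221 in PYK2 KO (SD, n = 3 mice each), which is 0.08 on the log2 scale (adjusted p = 0.947 in edgeR's quasi-likelihood test).

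Other inhibitory receptors with ITIMs were given by 17 genes, of which 12 were tested. Of these 0 passed in edgeR's quasi-likelihood test or by the other 4 tools, and the median log2 fold change was -0.02. In the quasi-likelihood test 1 had an unadjusted p under 0.05, against 6.03% of all genes tested. That gene was Pilra, at 53.8 ± 11.7 CPM in WT against 70.7 ± 3.01 in PYK2 KO (SD, n = 3 mice each), with no overlap between genotypes. Pirb, a receptor for MHC class I, had 1153 ± 51.4 and 1043 ± 36.5 CPM with no overlap, and Sirpa, the receptor for CD47 that restrains phagocytosis, 1488 ± 138 and 1381 ± 126 CPM, while Clec12a, a receptor for uric acid crystals, had 27.5 ± 5.06 and 33.8 ± 2.29 CPM (SD, n = 3 mice each). Receptors for other immunoglobulin classes and Fc receptor-like genes were mostly undetected, with 10 of 13 at 3 counts or fewer in each library, among them Fcer1a, Ms4a2, Fcmr and Pigr. The 3 tested were Fcrls, Fcrl1 and Trim21, the cytosolic antibody receptor, with log2 fold changes of -0.12, -0.12 and -0.05, of which 0 passed or had an unadjusted p under 0.05 in edgeR's quasi-likelihood test and 0 passed by the other 4 tools.

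**Figure D5:**
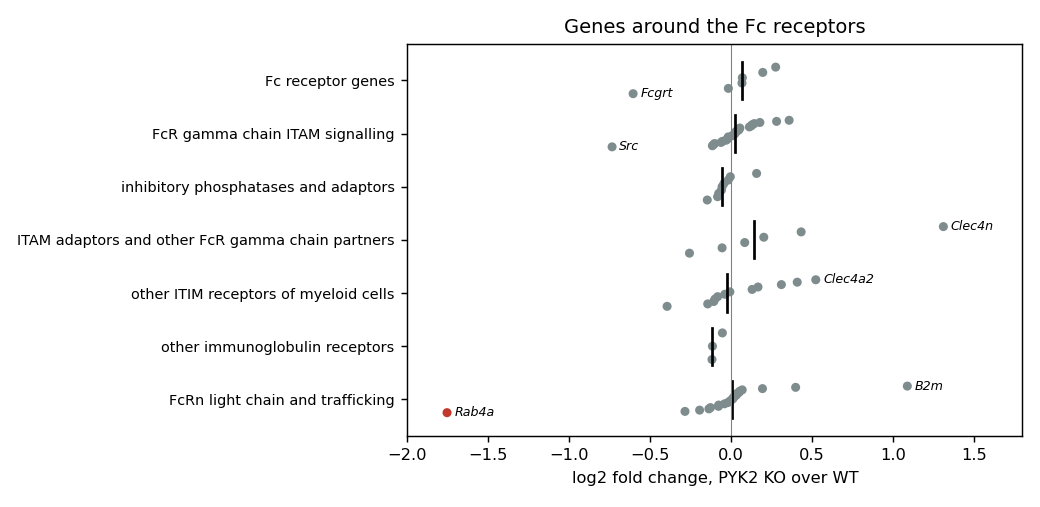
Log2 fold change of PYK2 KO over WT for each tested gene of the Fc receptor genes and of 6 related lists (points), with the median of each list as a black bar; red marks an adjusted p under 0.05. Rab4a is the only red point, and Fcgrt lies left of the other Fc receptor genes at -0.61.

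The genes whose profile over the 6 libraries lay nearest to each member were found by the root mean square difference of the centred log2 CPM. For Fcgrt they were Tctex1d4 (0.12) and Sh3bgrl2 (0.13), with log2 fold changes of -0.52 and -0.40, against a spread of Fcgrt itself of 0.34 on that scale. For Fcgr1 they were Isg15 (0.05), a gene induced by interferon, and Sap130 (0.05), against a spread of 0.17. For Fcgr2b they were Cemip2 and Per3 (both 0.05), against 0.21. For Fcgr3, Fcgr4 and Fcer1g, whose own spread was 0.07, 0.13 and 0.07, the nearest genes were Tpr and Ralgapa1, Chchd6 and Rrs1, and Gss and Nfe2l1, at differences of 0.02 to 0.03. With 6 libraries and 9815 genes, near profiles are found for any gene, so this is a description.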

How the data were processed

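BMDMs of 3 WT and 3 PYK2 KO mice were sequenced by bulk MARS-seq. The deposited values are whole-number, unscaled counts for each gene that the authors made with the UTAP pipeline; the submitters' processing notes name cutadapt, STAR and mm10. Whether molecular identifiers were collapsed or strand was used is not given in the sources used here, so counting errors cover counting alone. Columns were matched to mice by name, with 0 columns of other samples. Genotypes were compared by the quasi-likelihood test of edgeR 4.0.16 under R 4.3.3, with genotype as the only term, TMM factors and the filter filterByExpr. The threshold was an adjusted p under 0.05, by Benjamini and Hochberg's method over all genes tested. Standard errors and 95% intervals came from the fold change and its F statistic. The script was tested on simulated data. No pair of libraries was a duplicate (chi-square per degree of freedom of at least 2.25 within a genotype). Alternatives were DESeq2 1.42.0, limma 3.58.1, other edgeR tests, scalings and filters, a residual component as covariate, and leaving out each library. Positions came from GENCODE M21 by symbol. Profiles were compared on log2(CPM + 0.5). The members and lists were chosen with earlier results of these data known. Named were the members, in each list the 3 genes with the smallest p, the 2 with the highest level and any called, B2m and Tyrobp, the 2 genes nearest each member in profile, and the 3 genes near Fcgrt with the smallest p, of which 1 is not reported here. Syk, Inpp5d and the 4 undetected receptors were named after their values were seen.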

Additional observations from a re-analysis of the deposited data

How the results depend on the processing

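No paired analysis was possible because no mouse number occurs in both genotypes (1, 5 and 6 are WT, 2, 3 and 4 PYK2 KO). The log2 fold change of Fcgrt kept its direction in all 16 alternatives. It passed the threshold without a filter (-0.61, adjusted p = 0.000186), in edgeR's likelihood ratio test (-0.60, adjusted p = 0.0140) and exact test (-0.60, adjusted p = 0.0169) and with the residual component as covariate (-0.60, adjusted p = 0.0416), a component taken from these counts, so that its fit understates the error. Leaving out single libraries gave -0.74 (WT library 6, adjusted p = 0.0129) to -0.51 (WT library 5). Fcgr4 ran from -0.029 to 0.12 and Fcer1g from -0.061 to 0.049, so both turned, Fcgr4 when either WT library 1 or PYK2 KO library 3 was omitted, Fcer1g when WT library 5 or PYK2 KO library 4 was. Fcgr1 (0.10 to 0.29), Fcgr2b (0.18 to 0.37) and Fcgr3 (0.025 to 0.097) kept their direction and did not pass in any alternative, though single libraries moved each by over 1.5 times. The number of genes called, 25 in the edgeR quasi-likelihood test, was 159 without a filter, 45 in the likelihood ratio test, 43 in the exact test and 62 with the residual component. Without a filter B2m and Clec4n passed although their genotypes overlapped, so a pass in that fit is weak evidence of a difference. Leaving out single libraries gave 14 to 34 genes, the lowest being 14 in the absence of PYK2 KO library 4 and 15 in the absence of either WT library 5 or PYK2 KO library 2. Among the other named genes, reversals with one library left out ran from -0.028 to 0.14 for Chchd6, -0.14 to 0.034 for Dok3, -0.083 to 0.013 for Gss, -0.11 to 0.032 for Lat2, -0.055 to 0.080 for Nfe2l1, -0.11 to 0.0047 for Ptpn6, -0.086 to 0.052 for Rac1, -0.0098 to 0.14 for Rrs1 and -0.26 to 0.076 for Trim21, and without a filter Nfe2l1 was at -0.00051. With at least 10 counts required in every sample Src was not tested. The causes were not tested. For Fcgr1, at 81 to 105 counts per library, counting error was close to the spread between mice, while for Fcgrt in WT the spread of 18.7% exceeded the counting error of 6.87%.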
